A study of Mus musculus with 15 samples.

Results

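Genes that mark T cells and natural killer (NK) cells were followed in mouse liver, 10 in number: Cd3d, Cd3e, Cd3g, Cd4, Cd8a, Il7r, Nkg7, Gzma, Gzmb and Lck. They were found by symbol in the annotation of the array, among rows with 1 gene symbol, and the brightest row stood for a gene. By this rule 9 of the 10 genes were measured, each by 1 row, among 19938 genes in all. Lck, the kinase that starts signaling from the T cell receptor, was not analysed here. The 15 GeneChip Mouse Gene 1.0 ST arrays hold liver RNA of male C57BL/6J mice, with 3 arrays in each of 5 groups. These are Ath+HF+BCAA at 68w, Ath+HF at 68w, Ath+HF+BCAA at 38w, Ath+HF at 38w and the basal diet at 38w. Ath+HF is an atherogenic and high fat diet that leads to steatohepatitis, and BCAA stands for branched-chain amino acids, given as 3% of the diet. Diets began at an age of 8 weeks, so the time on them was 60 weeks for the 68w groups and 30 weeks for the 38w groups. The question put to these genes was how signals of lymphocytes in the liver moved with the diet, with the supplement and with age.

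T cells recognize peptides on other cells through the T cell receptor, whose signal is passed on by the CD3 chains. The coreceptors CD4 and CD8 bind MHC class II and class I molecules, and so divide T cells into helper and cytotoxic cells. NK cells lack the T cell receptor, and share with cytotoxic T cells the granules that carry granzymes. The liver is rich in both, and in fatty liver disease T cells and NK cells gather around injured hepatocytes together with macrophages.

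Every value here is a log2 signal as the authors deposited it, after RMA, and a difference of 1 is a doubling of signal. They have no true 0 and are not compared between genes. The medians of the arrays lay between 6.91 and 7.16. The tissue label held in every array, with the hepatocyte gene Alb between 13.91 and 14.16. Differences are from limma, with the 15 arrays in 1 fit. Its p-values were adjusted by Benjamini and Hochberg's method over the 19938 genes, and genes under 0.05 are called higher or lower. In whole liver, fewer cells of a type and less RNA per cell cannot be told apart. The arrays used here hold the basal diet at 38w alone, so wherever 68w is compared with 38w, the effects of age, of longer feeding and of a batch cannot be told apart. In a 68w group against the basal diet, the effect of the diet cannot be told apart from these either. Nothing read here states that the arrays of a group hold separate mice, so p-values measure the spread between arrays, which may be technical. The group of an array is taken from its label, which no measured value checks, so every direction rests on the labels. The study's own GeneChip analysis, whose data are the deposited ones used here, describes inflammation and fibrosis genes as raised by the Ath+HF diet and lowered by the supplement. Its tissue staining and qRT-PCR of fibrosis markers run that way too. Between the 68w groups most called immune genes were higher in Ath+HF+BCAA, which is the opposite direction, and the mean of 16 macrophage markers was 8.03 in Ath+HF at 68w, against 8.69 on the basal diet. Whether the labels of the 68w arrays are exchanged was not tested. Replicate 2 of Ath+HF+BCAA at 68w stood apart from the other arrays of its group in these genes, so the main differences and counts between the 68w groups are also given without it.

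The CD3 chains are the defining part of the T cell receptor complex, and 2 of the 3 changed on these arrays while the third did not pass the test in any comparison. Cd3e, the epsilon chain, was highest on the Ath+HF+BCAA arrays of 68w. Its signals were 8.28, 9.22 and 8.27 in Ath+HF+BCAA at 68w, against 7.77, 7.96 and 7.93 in Ath+HF at 68w. They were 8.06, 7.71 and 7.76 in Ath+HF+BCAA at 38w and 7.79, 7.76 and 7.66 in Ath+HF at 38w, against 7.53, 7.50 and 7.48 on the basal diet. Each Ath+HF+BCAA 68w array lay above all 12 others, and each basal diet array lay below all 12 others. Compared with the basal diet, Cd3e was higher by 1.09 in Ath+HF+BCAA at 68w (standard error 0.19, adjusted p = 0.000223 from limma), and by 0.77 without replicate 2. Compared with Ath+HF at 68w it was higher by 0.70 (standard error 0.19, adjusted p = 0.00863), and by 0.39 without replicate 2 (adjusted p = 0.0208). The differences of the remaining groups from the basal diet were 0.39 for Ath+HF at 68w, 0.34 for Ath+HF+BCAA at 38w and 0.24 for Ath+HF at 38w, and none of these was called.

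Cd3g, the gamma chain, was also higher in Ath+HF+BCAA than in Ath+HF at 68w, and was lowest in Ath+HF at 68w. Its signals were 7.02, 8.64 and 7.25 in Ath+HF+BCAA at 68w, against 5.79, 5.92 and 6.17 in Ath+HF at 68w. They were 7.83, 7.18 and 7.24 in Ath+HF+BCAA at 38w and 7.25, 6.98 and 6.33 in Ath+HF at 38w, against 6.65, 6.88 and 6.95 on the basal diet. The Ath+HF 68w arrays lay below the other 12 arrays, and those of the other groups overlapped in part. The Ath+HF 68w signals were dim and near background, where changes are compressed, which limits what the sizes of differences from this group can show. Between the 68w groups Cd3g was higher in Ath+HF+BCAA by 1.68 (standard error 0.33, adjusted p = 0.000882), which is 3.20-fold. Without replicate 2 this difference was 1.18 (adjusted p = 0.00189). Ath+HF+BCAA at 68w differed by 0.81 from the basal diet (adjusted p = 0.058) and by 0.22 from Ath+HF+BCAA at 38w (adjusted p = 0.627). Neither was called, and without replicate 2 they were 0.31 and -0.28. In Ath+HF at 68w it was lower than on the basal diet by 0.87 (standard error 0.33, adjusted p = 0.0483) and lower than in Ath+HF at 38w by 0.89 (standard error 0.33, adjusted p = 0.0436). The call against the basal diet was lost whichever of its 6 arrays was left out, with differences between -0.98 and -0.78. The call against Ath+HF at 38w was lost without any 1 of its 6 arrays except replicate 3 of Ath+HF at 38w, with adjusted p-values from 0.0608 to 0.164.

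Cd3d, the delta chain, lay between 5.62 and 6.27 on all 15 arrays, with group means between 5.85 and 5.95. Its adjusted p-values ran from 0.752 to 0.998 over 9 comparisons. For Ath+HF+BCAA against Ath+HF at 68w its difference was -0.05, with a 95% interval from -0.42 to 0.32, which leaves out a change of the size measured for Cd3g. The mean signal of Cd3d was at percentile 19.4 of all genes, where array signals lie near background and changes are compressed.

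**Figure D1:**
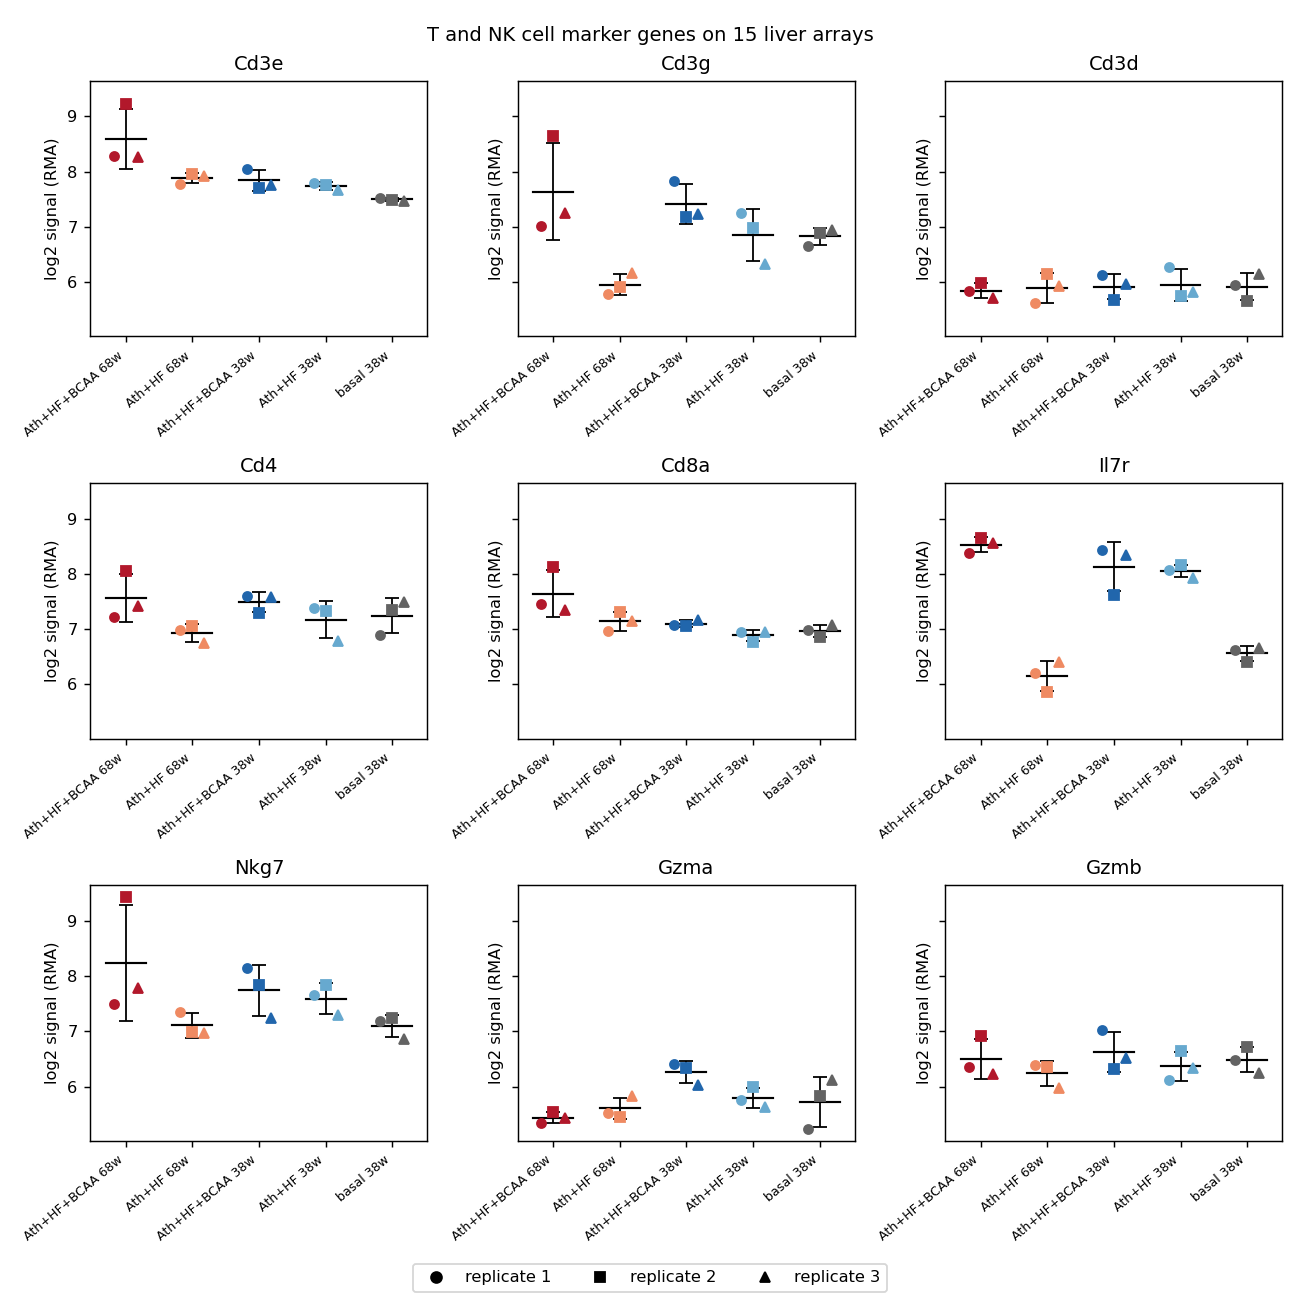
Log2 signals (y axis, RMA) of the 9 measured genes on each of the 15 arrays, by group (x axis), with the shape of a point showing the replicate and bars the mean and SD of 3 arrays. Il7r falls into a high level, from 7.62 to 8.65, and a low level, from 5.87 to 6.66, and replicate 2 is the highest Ath+HF+BCAA 68w array in all 9 genes.

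The promoters of the CD3 genes and of Il7r are shown because members of 1 complex, in part next to each other on the chromosome, differed on these arrays, and because Il7r had the widest range. Cd3g and Cd3d start 1355 bases apart on opposite strands, and of these only Cd3g was called in any comparison. The signal of Cd3d lay near background, so whether the RNA of these genes changed differently cannot be told from it. The windows are the 250 bases before each start, from RefSeq on GRCm38.p6, written 5′ to 3′ on the strand of the gene. Capitals mark the letters of 3 short motifs of lymphocyte transcription factors on either strand, which are GGAAGT or ACTTCC for ETS factors, TGTGGT or ACCACA for RUNX factors, and CACCTG or CAGGTG for E proteins.
Cd3e, chr9:45009612-45009861, reverse strand: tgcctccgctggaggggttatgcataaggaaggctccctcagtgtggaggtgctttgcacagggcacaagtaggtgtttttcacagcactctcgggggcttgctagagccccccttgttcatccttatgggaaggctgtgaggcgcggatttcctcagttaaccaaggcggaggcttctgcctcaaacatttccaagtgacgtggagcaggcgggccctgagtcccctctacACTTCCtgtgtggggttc
Cd3g, chr9:44980432-44980681, reverse strand: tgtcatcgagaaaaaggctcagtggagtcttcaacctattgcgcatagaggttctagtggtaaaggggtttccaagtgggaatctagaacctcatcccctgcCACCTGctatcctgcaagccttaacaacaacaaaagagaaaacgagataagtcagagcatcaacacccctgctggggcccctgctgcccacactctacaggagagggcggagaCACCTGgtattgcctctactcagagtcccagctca
Cd3d, chr9:44981536-44981785, forward strand: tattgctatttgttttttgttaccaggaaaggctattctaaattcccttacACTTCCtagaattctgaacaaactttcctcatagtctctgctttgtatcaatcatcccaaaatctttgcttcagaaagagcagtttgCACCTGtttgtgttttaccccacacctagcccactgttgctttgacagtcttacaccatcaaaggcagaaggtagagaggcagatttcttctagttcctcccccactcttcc
Il7r, chr15:9529877-9530126, reverse strand: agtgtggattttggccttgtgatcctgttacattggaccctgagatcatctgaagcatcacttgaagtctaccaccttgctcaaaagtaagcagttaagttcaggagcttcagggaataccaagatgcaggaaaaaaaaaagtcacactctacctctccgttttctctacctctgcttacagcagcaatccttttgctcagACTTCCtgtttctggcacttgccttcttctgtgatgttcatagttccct
The windows of Cd3e and Il7r each hold 1 ETS match, that of Cd3g holds 2 E protein matches, and that of Cd3d holds 1 of each. No matches overlapped. Among all 32851 windows of this length, 19.7% hold the ETS letters, 14% the RUNX letters and 17.2% the E protein letters. A match is a description of the sequence, and nothing about binding was measured. Of the 10 genes, 9 have a window in the table used.

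Both coreceptors were called higher in Ath+HF+BCAA than in Ath+HF at 68w, and neither call held without replicate 2. Cd4, the coreceptor of helper T cells that is also found on some macrophages, had signals of 7.22, 8.05 and 7.42 in Ath+HF+BCAA at 68w, against 6.98, 7.06 and 6.76 in Ath+HF at 68w. It had 7.61, 7.29 and 7.58 in Ath+HF+BCAA at 38w and 7.39, 7.33 and 6.78 in Ath+HF at 38w, against 6.90, 7.35 and 7.49 on the basal diet. The arrays of the 68w groups did not overlap, while both overlapped the basal diet arrays. Cd4 was higher by 0.63 in Ath+HF+BCAA than in Ath+HF at 68w (standard error 0.21, adjusted p = 0.0286), its only call. Without replicate 2 this difference was 0.39 and not called (adjusted p = 0.164), and the call was also lost without replicate 1 (adjusted p = 0.0526) or replicate 3 (adjusted p = 0.103) of Ath+HF at 68w.

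Cd8a, a chain of the coreceptor of cytotoxic T cells that also occurs on some dendritic cells, was highest in Ath+HF+BCAA at 68w. Its signals there were 7.46, 8.13 and 7.35, against 6.97, 7.32 and 7.15 in Ath+HF at 68w. They were 7.07, 7.06 and 7.17 in Ath+HF+BCAA at 38w and 6.94, 6.77 and 6.94 in Ath+HF at 38w, against 6.98, 6.86 and 7.07 on the basal diet. All 3 Ath+HF+BCAA 68w arrays lay above the other 12, with replicate 3 only just above the highest of Ath+HF at 68w. Cd8a was higher by 0.67 than on the basal diet (standard error 0.16, adjusted p = 0.00285), by 0.50 than in Ath+HF at 68w (standard error 0.16, adjusted p = 0.0232) and by 0.54 than in Ath+HF+BCAA at 38w (standard error 0.16, adjusted p = 0.0137). Without replicate 2 the first of these was called, while the differences from Ath+HF at 68w, 0.26 (adjusted p = 0.123), and from Ath+HF+BCAA at 38w, 0.30 (adjusted p = 0.0671), were not. The difference from Ath+HF+BCAA at 38w was also not called with equal array medians, at 0.39 (adjusted p = 0.0589), or with quantile normalization, at 0.39 (adjusted p = 0.0723). The call between the 68w groups was also lost without replicate 1 (adjusted p = 0.0882) or replicate 3 (adjusted p = 0.0546) of Ath+HF at 68w.

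Il7r, the alpha chain of the receptor for interleukin 7 that naive and memory T cells need to survive, had the widest range of group means among the 9 genes. Its signals were 8.38, 8.65 and 8.56 in Ath+HF+BCAA at 68w, against 6.20, 5.87 and 6.40 in Ath+HF at 68w. They were 8.42, 7.62 and 8.35 in Ath+HF+BCAA at 38w and 8.08, 8.15 and 7.93 in Ath+HF at 38w, against 6.62, 6.40 and 6.66 on the basal diet. The arrays thus fell into a high level, held by both 38w Ath+HF groups and by Ath+HF+BCAA at 68w, and a low level, held by the basal diet and by Ath+HF at 68w, with no array between 6.66 and 7.62.

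Against the basal diet, Il7r was higher by 1.97 in Ath+HF+BCAA at 68w (standard error 0.18, adjusted p = 4.95e-07), by 1.57 in Ath+HF+BCAA at 38w (adjusted p = 0.00019) and by 1.49 in Ath+HF at 38w (adjusted p = 0.000279). It was the only one of the 9 genes called against the basal diet at 38w. In Ath+HF at 68w its difference from the basal diet was -0.40 and not called (adjusted p = 0.0897), and it was lower than in Ath+HF at 38w by 1.90 on the log2 scale (adjusted p = 4.15e-06). The difference from the basal diet was called lower with equal array medians, at -0.59 (adjusted p = 0.0182), with quantile normalization, at -0.63 (adjusted p = 0.0125), and with array weights, at -0.52 (adjusted p = 0.0353). Between Ath+HF+BCAA and Ath+HF it was higher by 2.37 at 68w, or 5.18-fold (standard error 0.18, adjusted p = 8.88e-08), and the difference at 38w was 0.08, with a 95% interval from -0.31 to 0.46. The test of the difference between the ages gave 2.29 (standard error 0.26, adjusted p = 1.36e-05). Replicate 2 changed little here, since the difference between the 68w groups was 2.31 without it (adjusted p = 1.45e-06).

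The genes of cytotoxic granules were not called in the same comparisons. Nkg7, a granule protein of NK cells and cytotoxic T cells, had signals of 7.50, 9.43 and 7.78 in Ath+HF+BCAA at 68w, against 7.36, 6.98 and 6.97 in Ath+HF at 68w. It had 8.15, 7.83 and 7.23 in Ath+HF+BCAA at 38w and 7.65, 7.84 and 7.29 in Ath+HF at 38w, against 7.19, 7.23 and 6.86 on the basal diet. Replicate 2 of Ath+HF+BCAA at 68w exceeded every other array by more than a doubling. Nkg7 was higher in this group by 1.14 than on the basal diet (standard error 0.37, adjusted p = 0.0188) and by 1.13 than in Ath+HF at 68w (standard error 0.37, adjusted p = 0.0246). Neither call held without replicate 2, with differences of 0.54 (adjusted p = 0.0835) and 0.53 (adjusted p = 0.107). The first was also lost without replicate 3 of the basal diet (adjusted p = 0.0633) and with quantile normalization (adjusted p = 0.0545), and the second without replicate 2 (adjusted p = 0.0704) or replicate 3 (adjusted p = 0.0723) of Ath+HF at 68w.

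Gzma, granzyme A, a protease delivered into target cells, was called in 1 comparison. Its signals were 5.34, 5.53 and 5.44 in Ath+HF+BCAA at 68w, against 6.41, 6.33 and 6.03 in Ath+HF+BCAA at 38w. They were 5.53, 5.46 and 5.82 in Ath+HF at 68w and 5.76, 5.99 and 5.63 in Ath+HF at 38w, against 5.23, 5.84 and 6.11 on the basal diet. The Ath+HF+BCAA 38w arrays were higher than those of the 3 other diet groups but overlapped the basal diet, where replicate 1 had the lowest signal of all 15 arrays. Gzma was lower by 0.82 on the log2 scale in Ath+HF+BCAA at 68w than at 38w (standard error 0.18, adjusted p = 0.00234), while Cd3e and Cd8a were higher in that comparison. Without replicate 2 of Ath+HF+BCAA at 68w the difference was -0.87 (adjusted p = 0.00634). The mean signal of Gzma was at percentile 16.8 of all genes, where array signals lie near background. Whether its RNA moved differently from that of Cd3e, Cd8a or Nkg7 therefore cannot be told from these values.

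Gzmb, granzyme B, which activates caspases in target cells, lay between 5.98 and 7.02 on all arrays and was not called, with adjusted p-values from 0.338 to 0.997. Its difference between Ath+HF+BCAA and Ath+HF at 68w was 0.26, with a 95% interval from -0.18 to 0.70. Granzyme genes resemble each other in sequence, and shared probe signal between them was not tested. Of 8 other granzymes, none was higher between these groups and 1 was lower, where 19.8% of all genes were higher and 16.4% lower. This was Gzmd, by 0.55 on the log2 scale (adjusted p = 0.0388), with dim group means of 3.85 and 4.40. Without replicate 2 none was called. Against the basal diet, Ath+HF+BCAA at 68w had 1 of the 8 higher, Gzmk by 1.03 (adjusted p = 0.00258), and 1 lower, Gzmd. Of all genes, 22.9% were higher and 21.8% lower in that comparison.

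Between Ath+HF+BCAA and Ath+HF at 68w, 6 of the 9 genes were higher and none was lower, where 19.8% of all genes were higher and 16.4% were lower. The median difference of the 9 genes was 0.63, and that of all genes was -0.09. Without replicate 2, 3 of the 9 were higher, namely Cd3e by 0.39 (adjusted p = 0.0208), Cd3g by 1.18 (adjusted p = 0.00189) and Il7r, where 16.6% of all genes were higher. The same 3 genes were called without replicate 3 of Ath+HF at 68w.

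Between Ath+HF+BCAA at 68w and the basal diet, 4 of the 9 were higher and none was lower, where 22.9% of all genes were higher and 21.8% were lower. The 4 genes were Cd3e, Cd8a, Il7r and Nkg7, and Cd3g had a difference of 0.81 (adjusted p = 0.058). Without replicate 2, Nkg7 left this list, and Cd3g had 0.31 (adjusted p = 0.346). In Ath+HF at 68w against the basal diet, Cd3g alone was lower, where 19.1% of all genes were lower, and none of the 9 was higher, where 19% of all genes were. For Ath+HF+BCAA at 38w, 1 of 9 genes was called against the basal diet, where 3.67% of all genes were higher and 1.82% lower, and for Ath+HF at 38w 1 of 9, where 3.05% were higher and 1.18% lower. Both calls were Il7r.

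**Figure D2:**
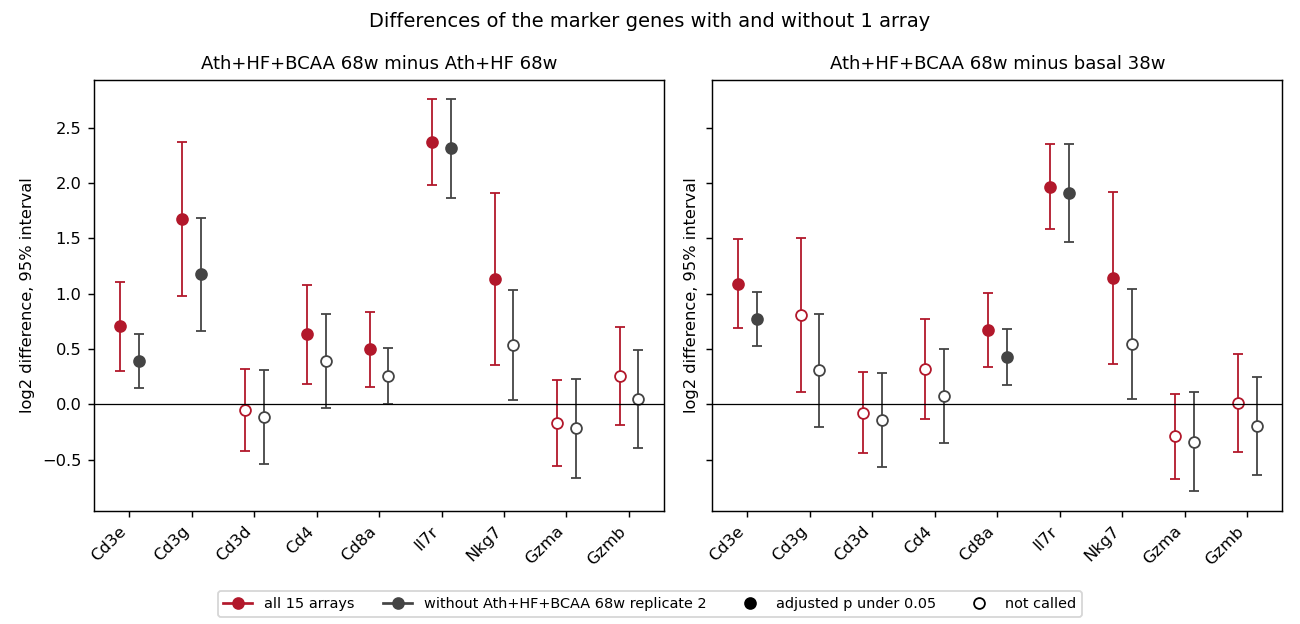
Log2 differences (y axis) of the 9 genes (x axis) between Ath+HF+BCAA at 68w and Ath+HF at 68w (left) or the basal diet at 38w (right), with 95% intervals from limma, for all 15 arrays (red) and without replicate 2 of Ath+HF+BCAA at 68w (grey); filled points were called. Il7r keeps its difference without that array, at 2.31 on the left, while Nkg7 loses its call on both sides.

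At 38w the supplement was not accompanied by a called change in any of the 9 genes, where 0% of all genes were called by limma. At an unadjusted p under 0.05 there was 1 of the 9 genes, Gzma, and 7.66% of all genes. Gzma had a difference of 0.46 between Ath+HF+BCAA and Ath+HF at 38w (95% interval from 0.07 to 0.85, adjusted p = 0.581). Cd3g had 0.56 (95% interval from -0.14 to 1.26, adjusted p = 0.729) and Cd4 had 0.32 (95% interval from -0.13 to 0.77, adjusted p = 0.762).

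Between the ages, Ath+HF+BCAA at 68w against 38w had 2 genes higher, Cd3e by 0.75 (adjusted p = 0.00551) and Cd8a, where 20.5% of all genes were higher, and 1 gene lower, Gzma, where 18.3% were lower. Without replicate 2, Cd3e was higher by 0.43 (adjusted p = 0.0107). Ath+HF at 68w against 38w had 2 genes lower, Il7r and Cd3g, where 20% of all genes were lower, and none higher, where 17.6% were higher. The test of whether the difference with the supplement changed with age called Il7r alone among the 9, where 12.9% of all genes were higher and 7.67% lower. The same test gave 1.11 for Cd3g (adjusted p = 0.105), 0.98 for Nkg7 (adjusted p = 0.2), 0.60 for Cd3e (adjusted p = 0.129) and -0.63 for Gzma (adjusted p = 0.0996). Without replicate 2 of Ath+HF+BCAA at 68w it gave 0.61 for Cd3g (adjusted p = 0.233), 0.39 for Nkg7 (adjusted p = 0.46) and 0.28 for Cd3e (adjusted p = 0.247), while without replicate 1 of that group it gave 1.42 for Cd3g, which was then called (adjusted p = 0.0427). Gzma was called in this test with array weights (adjusted p = 0.038) and in a fit of the compared groups alone (adjusted p = 0.0287). For Cd3g, Nkg7 and Cd3e on all arrays, a difference called at 68w and not at 38w was therefore not shown to differ between the ages.

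Replicate 2 of Ath+HF+BCAA at 68w had the highest signal of its group in all 9 genes, where 26.4% of all genes were highest on this array. It exceeded the mean of the other arrays of its group by 1.79 for Nkg7, 1.5 for Cd3g, 0.95 for Cd3e, 0.73 for Cd4 and 0.72 for Cd8a. The gaps were small for Il7r, at 0.18, and for Gzma, at 0.14. A gap over 1 was found for 2 of the 9 genes, and for 0.221% of all genes. Neutrophil markers were raised on the same array, with all 10 higher than on both other arrays of the group. Mpo, a granule enzyme of neutrophils, had 8.92 against 6.55 and 6.65, and Ngp, a granule protein of neutrophil precursors, had 9.96 against 6.97 and 6.27. The mean of the neutrophil list was 8.16 on this array, against 6.65 and 6.58, and ranged from 6.27 to 6.42 in Ath+HF at 68w. The mean of 11 B and plasma cell markers exceeded that of the other arrays of the group by 0.47 and that of 16 macrophage markers by 0.47, while that of 10 hepatocyte markers differed by -0.07. Their part in the result was not tested.

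In how they varied together, the 9 genes did not form 1 block. Over the 15 arrays the 36 pairs of genes had a median Pearson r of 0.34, and 17 pairs were above 0.5. Without replicate 2 the median was 0.21, with 8 pairs above 0.5. These are descriptions over arrays that share normalization and groups, and they hold no test. Cd3g and Cd4 had r = 0.89, and 0.82 without that array, while Cd3e and Cd8a had 0.92, and 0.74 without it. As deviations from the group means, Cd3e and Cd3g had 0.91, and 0.74 without replicate 2. Cd8a and Nkg7, which had 0.56 as deviations on all arrays, had -0.69 without it.

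**Figure D3:**
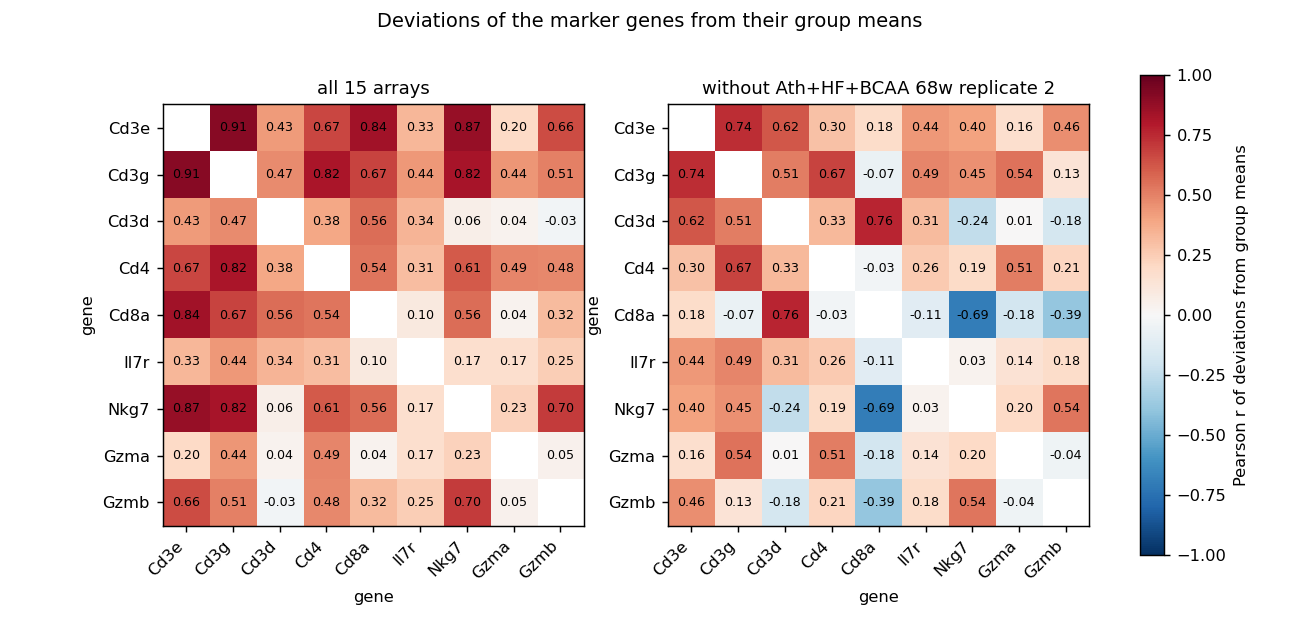
Pearson correlation (color scale and printed values) between the 9 genes (both axes) of their deviations from group means, over all 15 arrays (left) and without replicate 2 of Ath+HF+BCAA at 68w (right). Every pair among Cd3e, Cd3g, Cd4, Cd8a and Nkg7 is above 0.5 on the left. Among these genes, only Cd3e with Cd3g (0.74) and Cd3g with Cd4 (0.67) remain so on the right. Over all 36 pairs of the 9 genes, 14 are above 0.5 on the left and 8 on the right.

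The genes whose signal over 15 arrays was most like that of a marker differed by marker. For Il7r they were Plek (r = 0.987), a protein of platelets and leukocytes, Lpl (0.984), which encodes lipoprotein lipase, and Lum (0.981), a proteoglycan of the extracellular matrix. For Cd3e they were Orai2 (0.951), a calcium channel subunit, Bcl2l11 (0.932), a regulator of apoptosis, and Akna (0.928). For Cd3g they were Kif3a (0.939), a kinesin, Cd86 (0.927), a costimulatory ligand on antigen-presenting cells, and Gimap4 (0.921), a GTPase of lymphocytes. For Nkg7 they were Mmp8 (0.906), a collagenase of neutrophils, Cxcr6 (0.905), a chemokine receptor of liver T cells and NK cells, and Cd8b1 (0.899), the other chain of the CD8 coreceptor. For Gzma they were Krtap19-5 (0.869), a keratin-associated protein, Vmn1r197 (0.857), a vomeronasal receptor, and Olfr118 (0.855), an olfactory receptor, none of which is known as a lymphocyte marker. No gene was above 0.735 for Cd3d, which was Cyth2, or above 0.727 for Gzmb, which was Carns1. Without replicate 2 the r of Plek with Il7r was 0.987, and that of Mmp8 with Nkg7 was 0.765.

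Other genes of the T cell receptor pathway were called in part. Of 19 genes of T cell receptor signaling, 8 were higher in Ath+HF+BCAA than in Ath+HF at 68w and none was lower, with a median difference of 0.31, where 19.8% of all genes were higher. Without replicate 2, 7 were higher and the median was 0.17, where 16.6% of all genes were higher. Ptprc, the phosphatase CD45 of all leukocytes, was higher by 2.41 (adjusted p = 1.72e-08), Lcp2, an adaptor also used by myeloid cells, by 1.85 (adjusted p = 2.83e-06), and the kinase Fyn by 1.69 (adjusted p = 5.91e-07). These genes are not specific to T cells. In Ath+HF at 68w against 38w, 5 of these 19 were lower, where 20% of all genes were lower, and 1 was higher, where 17.6% were higher. Of 19 genes of T cell activation and subsets, 4 were higher and 1 lower between the 68w groups, a share higher that is near the 19.8% of all genes. Without replicate 2 there were 2 higher and 1 lower, a share higher that is below the 16.6% of all genes. Havcr2, the inhibitory receptor TIM-3, which is also found on macrophages, was higher by 1.81 (adjusted p = 4.45e-06), while Tox, a transcription factor of exhausted T cells, was lower by 0.87 on the log2 scale (adjusted p = 0.0028).

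Of 20 NK receptors and cytotoxic effectors, 7 were higher and 1 lower in Ath+HF+BCAA than in Ath+HF at 68w. Among all genes 19.8% were higher and 16.4% lower. Without replicate 2 there were 7 higher and 2 lower, where 16.6% of all genes were higher. Slamf7, a receptor of NK cells, plasma cells and activated macrophages, was higher by 2.76 (adjusted p = 2.17e-08), Ccl5, a chemokine of T cells and NK cells, by 2.73 (adjusted p = 1.17e-06), and Tyrobp, an adaptor shared by NK cells and myeloid cells, by 2.51 (adjusted p = 6.84e-09). At 38w, 3 of the 20 were higher in Ath+HF+BCAA than on the basal diet, where 3.67% of all genes were higher. In Ath+HF at 38w 5 of the 20 were higher than on the basal diet, where 3.05% of all genes were higher. The median difference of the list was 0.26 in both diets. The 5 in Ath+HF included Slamf7 by 1.32 (adjusted p = 0.000692), Klrc1, an NK receptor, by 0.71 (adjusted p = 0.0111), and Ncr1, the NK receptor NKp46, by 0.46 (adjusted p = 0.0342). Of 11 lymphocyte transcription factors, Ikzf1, which encodes Ikaros, was higher by 1.28 between the 68w groups (adjusted p = 2.74e-06), and Id2, needed for NK cells, was lower by 0.94 on the log2 scale (adjusted p = 1.51e-05). In all, 3 of these 11 were higher and 2 lower, not far from the 19.8% and 16.4% of all genes. Without replicate 2 there were 3 higher and 1 lower.

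Interleukin 7 belongs to a group of cytokines that signal through a shared gamma chain. Of 11 other genes of this pathway, 4 were higher and 1 was lower between the 68w groups, with a median difference of 0.01. Among all genes 19.8% were higher and 16.4% lower. Without replicate 2 there were 3 higher and 1 lower, where 16.6% of all genes were higher. Il2rg, the gene of the shared chain, and Jak3 were not analysed here. Bcl2, the survival factor that interleukin 7 maintains in T cells, was higher by 1.53 (adjusted p = 5.46e-07), Il15, a cytokine for NK cells and memory T cells, by 1.17 (adjusted p = 0.000196), and Jak1, the kinase bound to the receptor, by 0.54 (adjusted p = 0.000271). Il15ra, which presents interleukin 15, was lower by 0.79 on the log2 scale (adjusted p = 0.00109). Which cells these signals came from was not tested. At 38w Jak1 was called against the basal diet in both diets, by 0.37 in Ath+HF+BCAA (adjusted p = 0.0268) and by 0.37 in Ath+HF (adjusted p = 0.0336).

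T cells are drawn by chemokines and recognize MHC molecules on other cells. The MHC class I genes H2-K1 and H2-D1 were not analysed here. Of 14 genes of these ligands, 12 were higher and none was lower in Ath+HF+BCAA than in Ath+HF at 68w, with a median difference of 1.56. Among all genes 19.8% were higher and 16.4% lower. Without replicate 2 there were 11 higher, with a median of 1.33, where 16.6% of all genes were higher. H2-Ab1, an MHC class II chain, was higher by 3.42 (adjusted p = 3.35e-08), its invariant chain Cd74 by 3.05 (adjusted p = 5.58e-08), and Cxcl16, the ligand of Cxcr6, by 2.38 (adjusted p = 6.84e-09). At 38w, 6 of the 14 were higher in each diet group than on the basal diet. Of all genes, 3.67% were higher in Ath+HF+BCAA and 3.05% in Ath+HF. The 6 included H2-Ab1 by 1.49 in Ath+HF+BCAA (adjusted p = 0.00182) and by 1.47 in Ath+HF (adjusted p = 0.00215).

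Markers of other cell types, immune and not, were called in part between the 68w groups, where 19.8% of all genes were higher, and 16.6% without replicate 2. Of 16 macrophage and monocyte markers, 13 were higher and none lower, with and without replicate 2, and Cybb, the phagocyte oxidase, was higher by 3.45 (adjusted p = 3.86e-10). The mean of this list ranged from 9.69 to 10.18 in Ath+HF+BCAA at 68w, from 7.96 to 8.07 in Ath+HF at 68w, from 9.28 to 9.69 in Ath+HF+BCAA at 38w, from 9.31 to 9.73 in Ath+HF at 38w and from 8.63 to 8.74 on the basal diet. The groups high in this list are the groups high in Il7r. Of 9 dendritic cell markers 7 were higher between the 68w groups, of 7 endothelial markers 6, of 10 neutrophil markers 3 and of 11 B and plasma cell markers 2, and none of these was lower. Without replicate 2 these counts were 5, 4, 3 and 1 in the same order. The share of B and plasma cell markers was below that of all genes on either set of arrays. Of 10 hepatocyte markers 2 were lower, where 16.4% of all genes were lower, with a median difference of -0.08, and none without replicate 2. The part of these cell types in the results above was not tested.

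**Figure D4:**
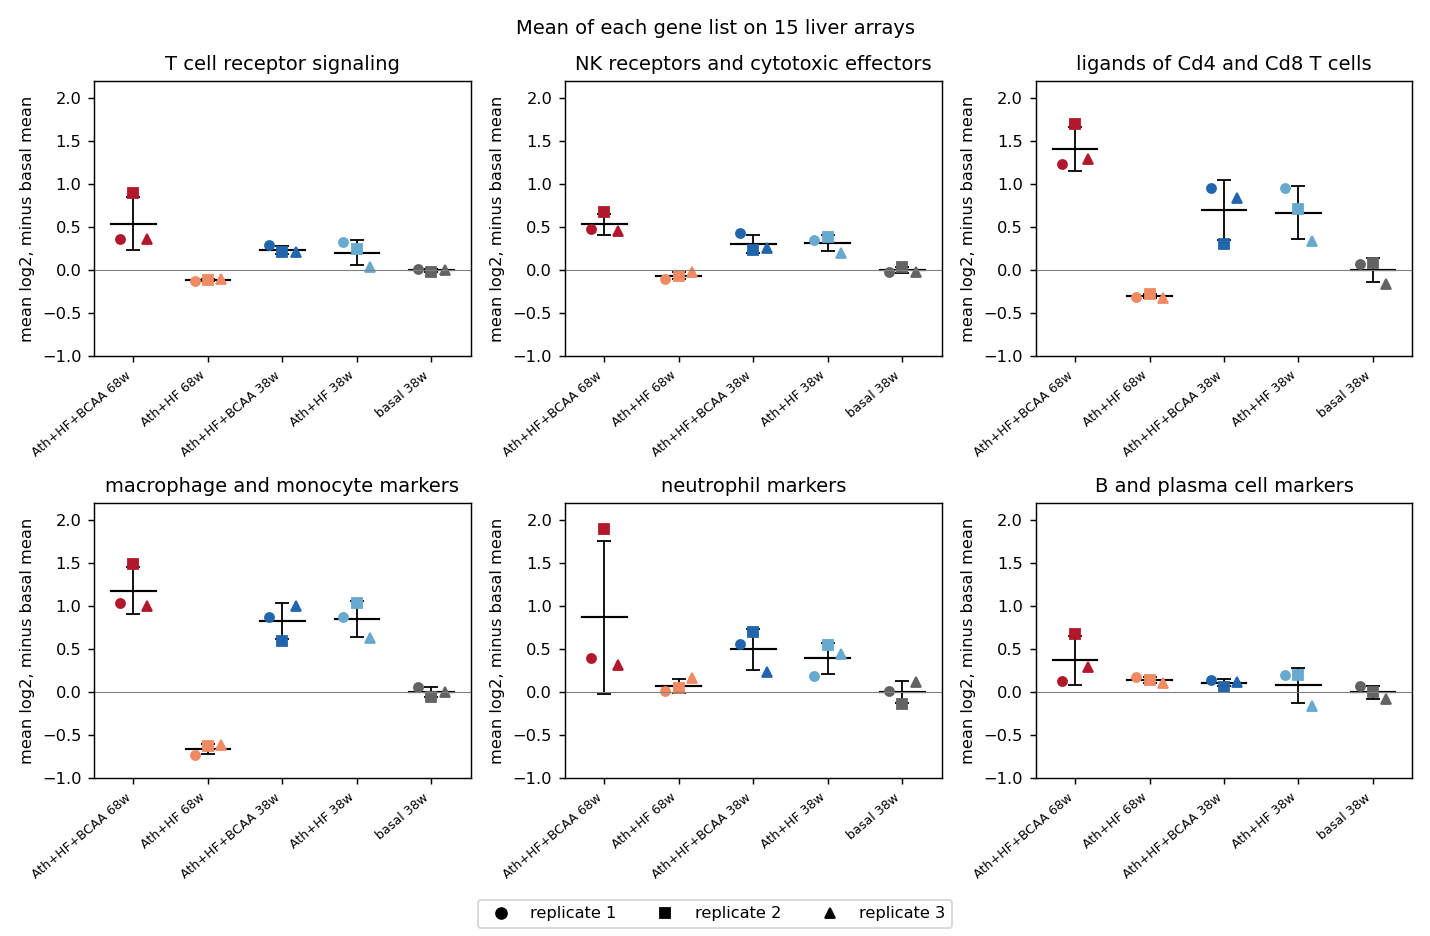
Mean log2 signal of 6 gene lists on each of the 15 arrays, less the mean of the basal diet arrays (y axis), by group (x axis), with the shape of a point showing the replicate and bars the mean and SD of 3 arrays. Ath+HF 68w lies below the basal diet for macrophage markers, and replicate 2 of Ath+HF+BCAA at 68w stands out in the neutrophil markers.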

How the data were processed

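Liver RNA was measured on 15 GeneChip Mouse Gene 1.0 ST arrays, 3 a group. The authors deposited log2 values from RMA in Affymetrix Expression Console (the sources used here give no version). Arrays were grouped by their labels. Of 35556 rows, 21789 carried 1 symbol in the platform annotation, 1621 carried several and 12146 were unnamed here, which left 19938 genes, each by its brightest row. All arrays entered 1 fit of lmFit and eBayes in limma 3.58.1 under R 4.3.3, with a mean for each group and 10 residual degrees of freedom, from which 9 comparisons were taken. The fit was tested on simulated data. The genes and lists were chosen with earlier results of these data known. All 10 genes are named, and of each other list up to 4 called genes with the smallest p in a comparison, besides the defining genes of another cell type. Likeness was given for up to 3 genes with the highest Pearson r. The replicate numbers were not treated as pairing arrays in the main fit. Deviations from the group means correlated above 0.1 in 3 of 30 pairs of arrays with the same number (range -0.16 to 0.18). Such correlations over all genes cannot exclude a pairing that acts weakly or on few genes. Alternatives were all rows, the mean of a gene's rows, the compared groups alone, genes above the lowest 25% of signal, equal medians, quantile normalization, the replicate block, array weights, a robust fit with a variance trend, the methods' test, an adjusted p under 0.01, and leaving out each array. A fit of the 38w arrays alone, and counts of the lists without replicate 2 of Ath+HF+BCAA at 68w, were chosen after seeing the data. The number of arrays limits the precision.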

Additional observations from a re-analysis of the deposited data

Results flagged for a closer look

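Il7r stood out because its difference between Ath+HF+BCAA and Ath+HF differed between the ages, by the test of that difference itself in limma. The difference at 68w minus that at 38w was 2.29 on the log2 scale (standard error 0.26, 95% interval from 1.75 to 2.84, adjusted p = 1.36e-05). At 68w all 3 Ath+HF+BCAA arrays lay above all 3 Ath+HF arrays, with means of 8.53 and 6.16. At 38w the means were 8.13 and 8.05 and the arrays overlapped. The mean of 16 macrophage markers was 9.86 in Ath+HF+BCAA and 8.03 in Ath+HF at 68w, and 9.51 in Ath+HF+BCAA and 9.53 in Ath+HF at 38w, and its part in the result was not tested.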

How the results depend on the processing

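Counts below are of the 9 genes. For Ath+HF+BCAA at 68w against the basal diet (4 called), the methods' test, a test over the spread of each gene alone with Bonferroni over the 10 pairs of groups, called 2 after Benjamini-Hochberg. For Ath+HF at 68w against the basal diet (1 called), 2 were called in a fit of the compared groups alone, with equal medians and with quantile normalization, and 0 with every row in the fit, with a variance trend and robust fit, with the methods' test before and after Benjamini-Hochberg, at an adjusted p under 0.01, and, from 0 to 0, without any 1 array. For each 38w diet group against the basal diet (1 called), the methods' test after Benjamini-Hochberg called 0, and leaving out 1 array gave from 1 to 2 for Ath+HF+BCAA, with Gzma added without replicate 3 of the basal diet. Between the 68w groups (6 called), the methods' test called 2, and 1 after Benjamini-Hochberg, an adjusted p under 0.01 left 3, and leaving out 1 array gave from 3 to 6. For Ath+HF+BCAA at 68w against 38w (3 called), the methods' test called 1, and 0 after Benjamini-Hochberg. For Ath+HF at 68w against 38w (2 called), 1 was called with every row, a variance trend and robust fit, array weights, the methods' test before and after Benjamini-Hochberg and an adjusted p under 0.01, and leaving out 1 array gave from 1 to 2. For the difference between the ages (1 called), a fit of the compared groups and array weights called 2, and leaving out 1 array gave from 1 to 2. Directions turned in differences that were not called. Cd8a in Ath+HF at 68w against the basal diet was -0.015 with equal medians and -0.013 with quantile normalization, Gzma between the 68w groups was 0.0044 with quantile normalization, Cd3d between the 68w groups was 0.090 with quantile normalization and ran from -0.19 to 0.071 when 1 array was left out, and Il7r between the 38w groups ran from -0.068 to 0.33 when 1 array was left out. Of the other values, 129 counts stayed within 1.5 times, and 751 differences kept their direction and their side of the threshold, while 68 kept their direction and were no longer called and 15 became called. The cause was not tested.

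Equal medians moved the median of all genes against the basal diet from 0.01 to -0.18 in Ath+HF+BCAA at 68w and from 0.05 to -0.14 in Ath+HF at 68w. The calls over all genes in these comparisons were then 2781 higher and 7057 lower, in place of 4557 and 4342, and 1191 higher and 6145 lower, in place of 3791 and 3812. Il7r, Cd3e, Cd8a and Nkg7 were called higher in the first comparison under that setting, and Gzma lower, by 0.48 on the log2 scale (adjusted p = 0.0476).

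The labels do not say what the replicate numbers stand for. With the replicate block 0 genes were called for Ath+HF at 68w against the basal diet (Cd3g adjusted p = 0.0532), against 1 without it, and no other count changed. Dim signals, as of Cd3d, of Gzma and of Cd3g in Ath+HF at 68w, lie near background, which limits what their values can show.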
